A study of Mus musculus with 6 samples.

Results

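The MYC, MAX and MXD network was followed through MYC-driven B-cell lymphoma development at the level of its messenger RNAs. Its members were taken as 10 genes listed by symbol (Myc, Mycn, Max, Mxd1, Mxd3, Mxd4, Mxi1, Mnt, Mga and Mlx), of 37991 genes counted in each library. Each symbol matched 1 identifier, and all 10 passed the filter on low counts, Mycn through its wild-type and premalignant libraries. Polyadenylated RNA of sorted bone marrow B-cell progenitors was sequenced in 6 libraries, 2 for each of 3 stages. Wild-type cells (wt) came from littermates of the transgenic mice at 4 to 6 weeks of age. Premalignant cells (prem) came from heterozygous Eμ-Myc mice of the same age, and malignant cells (mal) from Eμ-Myc mice of 10 to 20 weeks with an established spontaneous lymphoma. All mice were on a C57BL/6 background, and individual animals served as replicates. Wild-type and premalignant animals were female, while the study took malignant cells from both sexes. The sex of the malignant animals sequenced here is not given. In Eμ-Myc mice the enhancer of the immunoglobulin heavy-chain gene drives a Myc transgene in B-lineage cells, and reads of the transgene and of the endogenous gene cannot be told apart in these counts. Wild-type and premalignant cells were sorted as B220high IgMlow IgDlow and malignant cells as B220+ IgM- IgD-. Age, gate and disease stage, and possibly sex, therefore differ together between the malignant and the other groups and cannot be told apart.

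MYC and its relative MYCN are transcription factors that bind DNA only as heterodimers with MAX, at the E-box CACGTG. MAX also pairs with MXD1, MXD3, MXD4, MXI1 and MNT, which recruit the SIN3 corepressor to the same sites, and with MGA, the scaffold of a Polycomb repressor complex. MLX is the MAX-like partner of MLXIP (MondoA) and MLXIPL (ChREBP), which sense glucose metabolites, and it also dimerises with MNT and with some MXD proteins. All of these proteins share a helix-loop-helix leucine zipper, and the relative amounts of the partners bear on whether E-box genes are activated or repressed. In B-cell development MYC drives the proliferation of early progenitors, and MYCN can stand in for it.

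The libraries held 51065861, 53453055 and 52996457 counts for replicate 1 of wild type, premalignant and malignant cells, and 31283803, 34543633 and 30031100 counts for replicate 2. Replicate 1 was the deeper library at every stage. A count of 3 corresponded to 0.0526 to 0.108 CPM (counts per 1000000 of the TMM-scaled library size). The defining B-lineage markers were detected in every library. Their summed level over 6 genes was 4444 and 5481 CPM in wild type, 2987 and 3038 CPM in premalignant and 2988 and 2702 CPM in malignant cells. The summed level of 6 pre-B markers, the recombinase gene Rag1 the highest of them, was 3168 and 2823 CPM in wild type, 523 and 426 CPM in premalignant and 210 and 125 CPM in malignant cells, and none of these markers was at 0. Levels per cell and numbers of cells cannot be told apart in these bulk libraries. A gene was called changed at a Benjamini-Hochberg adjusted p of at most 0.1 over all genes tested in edgeR's quasi-likelihood test, together with a log2 fold change of 0.5 or more in size. All adjusted p-values below come from that test. Errors of fold changes are standard errors worked back from the fold change and the F statistic of that test. They are approximate, and may be too small where counts are low, as for Mycn.

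**Figure D1:**
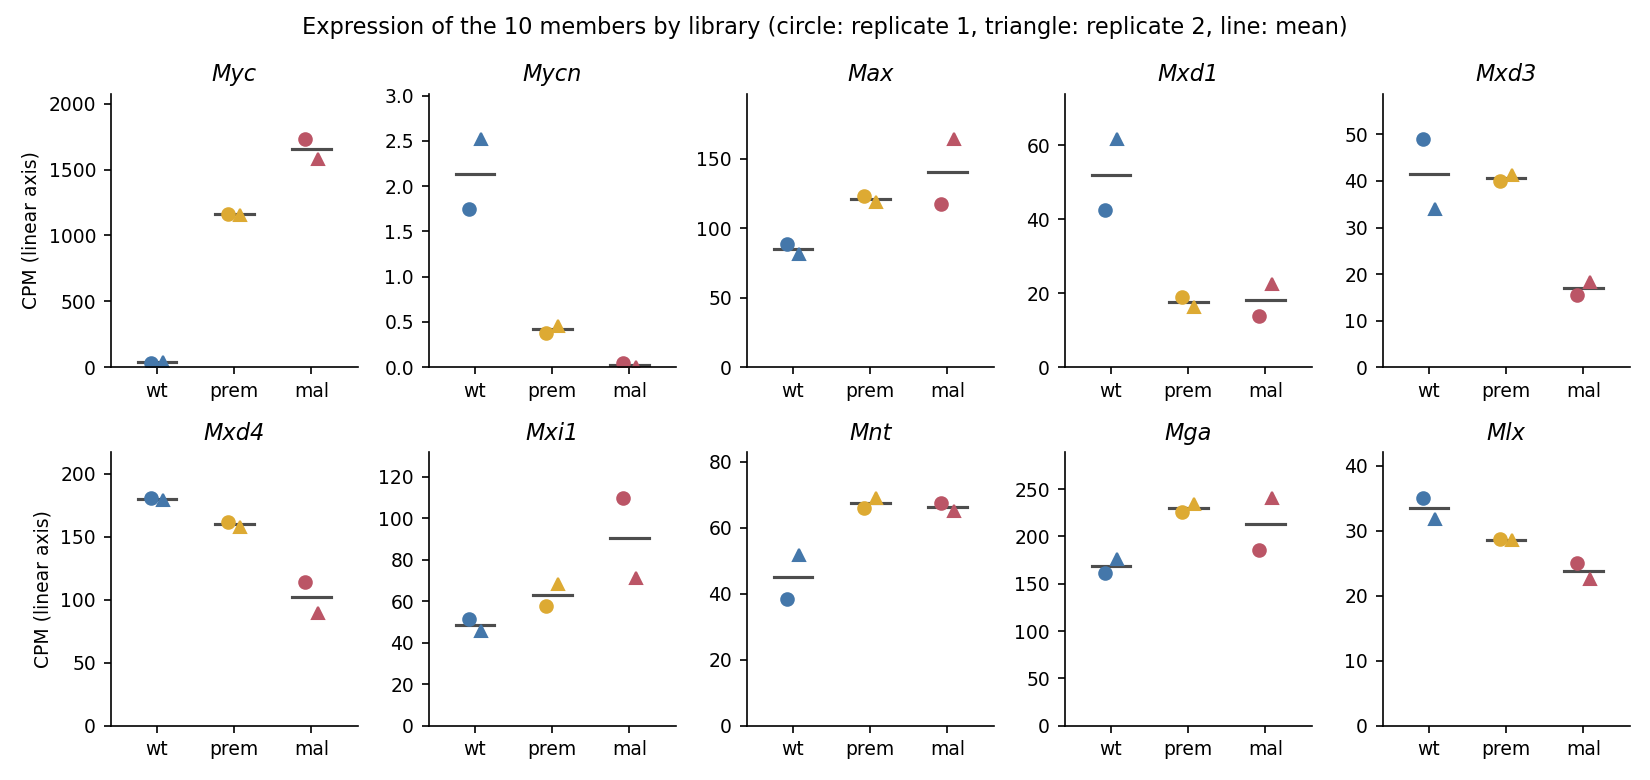
Level of each member in CPM (vertical axis, linear, starting at 0, with a scale of its own in each panel) by stage (wt wild type, prem premalignant, mal malignant); points are libraries and lines are means of 2. Myc was at 33.8 and 41.4 CPM in wild type and between 1155 and 1732 CPM in the 4 Eμ-Myc libraries. Mycn, Mxd1, Mxd3, Mxd4 and Mlx were lower in both malignant than in both wild-type libraries, Mlx without being called in the main fit.

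Myc was the member that changed most in the direction of higher expression. It lies on chromosome 15 (mm9, 61816946 to 61821929, plus strand) and its level was 33.8 and 41.4 CPM in the wild-type libraries. Premalignant libraries stood at 1164 and 1155 CPM and malignant libraries at 1732 and 1578 CPM. The 3 stages did not overlap. Myc rose by 4.95 ± 0.19 on the log2 scale, 30.9-fold, between wild type and premalignant cells (adjusted p = 0.00104, n = 2 per stage), and stood 44.1-fold above wild type in malignant cells (log2 fold change 5.46 ± 0.20, adjusted p = 0.000338). Between premalignant and malignant cells both malignant libraries were higher, at a log2 fold change of 0.51 ± 0.16, but the difference was not called (adjusted p = 0.161). It stood at 0.54 once malignant replicate 2 was left out, and was called in that fit. In DESeq2 the difference passed the FDR threshold, but at 0.48 stayed under the minimum size.

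Mycn, the paralogue expressed in early progenitors, went the opposite way. Its level was 1.75 and 2.52 CPM in wild type, 0.381 and 0.452 CPM in premalignant cells, and 0.0418 and 0 CPM in malignant cells. In reads these were 100 and 89, then 20 and 15, then 2 and 0. Mycn was called lower at each step, with log2 fold changes of -2.35 ± 0.56 from wild type to premalignant (adjusted p = 0.0243), -3.88 ± 0.79 from premalignant to malignant (adjusted p = 0.0668) and -6.23 ± 0.77 from wild type to malignant (adjusted p = 0.00203). With so few malignant reads the size is better given as the ratio of pooled counts, scaled for depth. Wild-type cells had 5.01 times the premalignant level (exact 95% interval 3.48 to 7.4), and premalignant cells 15.5 times the malignant level (3.97 to 133). Wild-type cells had 77.4 times the malignant level (21.1 to 644). These intervals cover counting error only, and the call between premalignant and malignant cells held in 2 of 6 fits that left out 1 library, that between wild type and premalignant cells in 3 of 6 and that between wild type and malignant cells in all 6.

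Max, the shared partner, rose only modestly beside Myc. It lies on chromosome 12 (mm9, 78038256 to 78063235, minus strand). Its level was 88.8 and 81.6 CPM in wild type, 123 and 119 CPM in premalignant and 117 and 164 CPM in malignant cells. Both Eμ-Myc stages lay above wild type without overlap, and the premalignant pair lay between the malignant libraries. The log2 fold change was 0.50 ± 0.18 in premalignant cells (adjusted p = 0.0821), at the edge of the call and called in 2 of 6 fits that left out 1 library. Of 9 other settings of scaling, filter, model or threshold, 4 kept this call. Upper-quartile scaling lost it, at a log2 fold change of 0.42. In malignant against wild-type cells the log2 fold change was 0.73 ± 0.18 (adjusted p = 0.0215). That call was lost without wild-type replicate 2 or without malignant replicate 2, where the value stood at 0.49.

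Among the MXD genes, whose products compete with MYC for MAX, Mxd1 was lower at both Eμ-Myc stages. Mxd1 is induced as haematopoietic cells stop dividing and differentiate, the myeloid lineage included. Its level was 42.4 and 61.7 CPM in wild type, 19.1 and 16.3 CPM in premalignant and 13.9 and 22.5 CPM in malignant cells. Both transgenic stages lay below wild type and overlapped each other. The log2 fold change was -1.56 ± 0.30 in premalignant (adjusted p = 0.0128) and -1.52 ± 0.30 in malignant cells against wild type (adjusted p = 0.00913), and 0.04 ± 0.29 between the Eμ-Myc stages (adjusted p = 0.967). Wild-type libraries also held more RNA of myeloid cells. The summed level of 7 myeloid markers, none of them at 0 in any library and S100a9 the highest, was 776 and 1703 CPM in wild type, 232 and 248 CPM in premalignant and 55.3 and 113 CPM in malignant cells. Summed erythroid markers (427 and 1638, 101 and 213, and 72.2 and 88 CPM) and NK-cell markers (171 and 51, 8.56 and 2.68, and 3.43 and 4.19 CPM) were likewise highest in wild type. T-cell markers were at 119 and 77.1, 42.5 and 23.3, and 13.1 and 74 CPM, with 1 of 6 at 0 in premalignant replicate 2. Lck alone gave 11.9 and 64.1 CPM of the malignant sums. The part of myeloid and other non-B cells in the Mxd1 difference, or in that of any other member, was not tested. Mxd1 was called lower in malignant cells in all 6 fits that left out 1 library, each of which kept a wild-type library with at least 776 CPM of myeloid markers. The call in premalignant cells was lost without premalignant replicate 2.

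Mxd3 and Mxd4 fell at the second step, between premalignant and malignant cells. Mxd3, which unlike the other MXD genes is transcribed in dividing cells during S phase, stood at 49 and 33.9 CPM in wild type, 40.1 and 41.3 CPM in premalignant and 15.5 and 18.4 CPM in malignant cells. The premalignant libraries lay between the wild-type libraries, and both malignant libraries lay below all others. The log2 fold change was -0.03 ± 0.21 from wild type to premalignant (adjusted p = 0.931) and -1.26 ± 0.22 from premalignant to malignant (adjusted p = 0.0456), the latter lost without either premalignant library. Malignant cells were 2.45-fold lower than wild type (log2 fold change -1.29 ± 0.22, adjusted p = 0.00552), a call made in all 6 fits that left out 1 library. The summed level of 10 proliferation genes was 4771 and 3083 CPM in wild type, 6030 and 6455 CPM in premalignant and 3810 and 4933 CPM in malignant cells. It was highest in premalignant cells, and the malignant libraries lay within or just above the range of wild type. Its part in the Mxd3 difference was not tested. Mxd3 shares 104 bases, 5% of its exon length, with exons of Prelid1 on the other strand, and reads there cannot be told apart because the library kit does not mark strand.

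Mxd4, the most abundant MXD gene, stood at 181 and 179 CPM in wild type, 162 and 158 CPM in premalignant and 114 and 89.5 CPM in malignant cells. The 3 stages were ordered without overlap. The log2 fold change was -0.17 ± 0.15 in premalignant cells (adjusted p = 0.434), -0.66 ± 0.15 from premalignant to malignant (adjusted p = 0.0898) and -0.82 ± 0.15 in malignant against wild-type cells (adjusted p = 0.00757). The second of these was called in 2 of 6 fits that left out 1 library, and the last in all 6.

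Mxi1, the remaining MXD-type repressor, and Mnt moved the other way. Mxi1 stood at 51.6 and 45.5 CPM in wild type, 57.5 and 68.1 CPM in premalignant and 110 and 71.2 CPM in malignant cells, ordered without overlap but with a wide gap between the malignant libraries. Against wild type it was called higher in malignant cells (log2 fold change 0.90 ± 0.23, adjusted p = 0.023), and the call was lost without wild-type replicate 2. The step from wild type to premalignant was 0.37 ± 0.23 (adjusted p = 0.263) and the step to malignant cells 0.53 ± 0.23 (adjusted p = 0.275). Of its exon length, 3.45% is shared with Gm10197 on the other strand.

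Mnt, a broadly expressed antagonist of MYC that pairs with MAX and MLX, stood at 38.3 and 51.6 CPM in wild type, 66.1 and 69.1 CPM in premalignant and 67.4 and 65 CPM in malignant cells. All 4 Eμ-Myc libraries lay above both wild-type libraries and overlapped between stages. The log2 fold change was 0.59 ± 0.18 in premalignant (adjusted p = 0.0479) and 0.56 ± 0.18 in malignant cells (adjusted p = 0.0433) against wild type. Each of these calls was made in 3 of 6 fits that left out 1 library and was lost without wild-type replicate 1, without premalignant replicate 1 or without premalignant replicate 2.

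Mga and Mlx were not called in any comparison of the main edgeR fit. Mga stood at 161 and 176 CPM in wild type, 226 and 234 CPM in premalignant and 186 and 241 CPM in malignant cells, above wild type in all 4 Eμ-Myc libraries. Its log2 fold change in premalignant cells, 0.45 ± 0.16, passed the test (adjusted p = 0.0809) and stayed under the minimum size. Mga was called there when only wild type and premalignant cells were fitted. Mlx stood at 35.1 and 31.8 CPM in wild type, 28.7 and 28.5 CPM in premalignant and 25.1 and 22.5 CPM in malignant cells, ordered without overlap. Its log2 fold change in malignant against wild-type cells was -0.49 ± 0.16 (adjusted p = 0.0443), just under the minimum size. DESeq2 called Mlx lower in this comparison, at -0.50. A share of 19.3% of the exon length of Mlx overlaps Psmc3ip on the other strand.

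**Figure D2:**
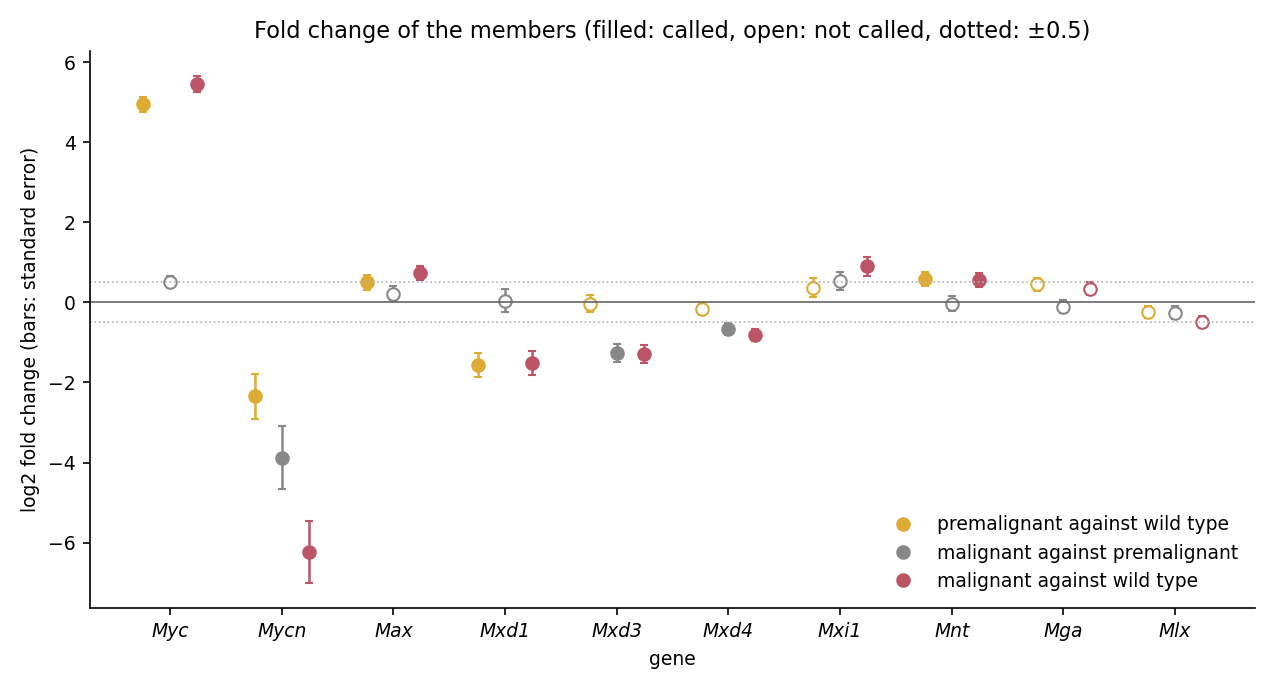
Log2 fold change (vertical axis) of each member (horizontal axis) in the 3 comparisons, with bars for the standard error, filled points for called and open points for uncalled differences, and dotted lines at the minimum size of 0.5. Myc and Mycn lie far from 0 in opposite directions, and the changes of Mxd3 and Mxd4 lie in the malignant comparisons.

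Counted over the network, 5 of 10 members were called between wild type and premalignant cells, where 39.3% of all 16683 genes tested were called. Myc, Max and Mnt were higher, against 19% of all genes, and Mycn and Mxd1 lower, against 20.3%. Between premalignant and malignant cells 3 of 10 members were called, all lower (Mycn, Mxd3 and Mxd4), where 6.18% of all genes were called and 2.45% were called lower. None was called higher by edgeR or by DESeq2, 4 members had an unadjusted p under 0.05, and 3.73% of all genes were called higher. Between wild type and malignant cells 8 of 10 were called, where 49.2% of all genes were. Myc, Max, Mxi1 and Mnt were higher (24.9% of all genes) and Mycn, Mxd1, Mxd3 and Mxd4 lower (24.3%). DESeq2 called 9 members in this comparison, with Mlx lower in addition. The libraries of the compared stages did not overlap for 9 members between wild type and premalignant cells, for 6 between the Eμ-Myc stages and for all 10 between wild type and malignant cells, beside 77.4, 51.1 and 71.7% of all genes. The median log2 fold change of the members was 0.17, -0.07 and -0.07 in the 3 comparisons, beside -0.08, 0.04 and -0.02 over all genes. Upper-quartile scaling moved the median of all genes in malignant against wild-type cells to -0.19. The members then split into 3 called higher and 5 lower, with Mnt at 0.39 no longer called and Mlx at -0.66 called, and every member kept its direction in that comparison.

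Levels can be compared between genes only per length, and are given here as RPKM, CPM per kilobase of summed exons. In wild-type cells Mxd4 (46.4 ± 0.47, SD, n = 2) and Max (42.5 ± 2.52) were the most abundant members, and they did not overlap. Mxd3 followed at 19.9 ± 5.13 and overlapped Mlx at 16.7 ± 1.15. Myc came next at 13.8 ± 1.99, and its libraries overlapped those of Mxd1 at 11.2 ± 2.92. Mxd1, Mga (11 ± 0.68), Mnt (9.72 ± 2.04) and Mxi1 (8.64 ± 0.77) overlapped from each to the next, and Mycn was last at 0.649 ± 0.17. In premalignant cells Myc led at 427 ± 2.34 RPKM, ahead of Max at 60.2 ± 1.38 and Mxd4 at 41.3 ± 0.65. In malignant cells Myc stood at 609 ± 40.1, Max at 70.3 ± 16.6 and Mxd4 at 26.2 ± 4.45. Mxi1 (16.1 ± 4.88), Mnt (14.3 ± 0.37), Mga (13.9 ± 2.55) and Mlx (11.9 ± 0.92) came next, overlapping from each to the one after it. Mxd3 had dropped below these, to 8.14 ± 0.96.

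**Figure D3:**
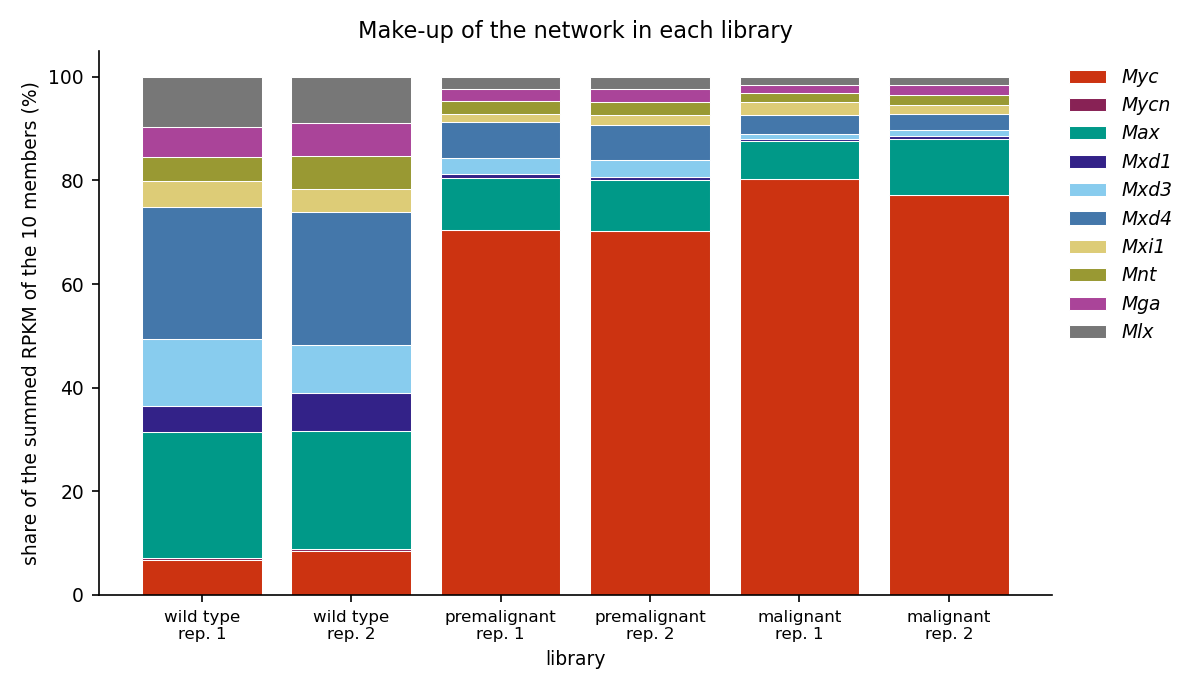
Share of the summed RPKM of the 10 members (vertical axis, percent) taken by each member in each of the 6 libraries (horizontal axis). Myc took 6.82 and 8.52% in wild type, 70.4 and 70.2% in premalignant and 80.2 and 77.1% in malignant cells.

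The make-up of the network therefore shifted at the first step. Myc RNA was below Max RNA in both wild-type libraries, with a ratio of RPKM of 0.281 and 0.374, and above it in the others, at 7 and 7.17 in premalignant and 10.9 and 7.08 in malignant cells. The ratio of Myc to the summed repressing partners of MAX (Mxd1, Mxd3, Mxd4, Mxi1, Mnt and Mga) was 0.116 and 0.143 in wild type. It reached 4.11 and 3.99 in premalignant and 7.41 and 7.34 in malignant cells, and the 3 stages did not overlap. These ratios are of RNA levels and say nothing of the amounts of protein.

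The summed level of the 6 repressing partners itself was 107 and 106 RPKM in wild type and 104 and 106 RPKM in premalignant cells, and 86.1 and 79.1 RPKM in malignant cells. It overlapped between the first 2 stages and was lower in both malignant libraries. Its make-up differed as well. The ratio of Mxi1 and Mnt together to Mxd3 and Mxd4 together was 0.248 and 0.309 in wild type, 0.402 and 0.446 in premalignant and 0.928 and 0.838 in malignant cells. Max relative to the 6 repressing partners stood at 0.413 and 0.383, then 0.587 and 0.557, then 0.681 and 1.04, again without overlap between stages. No test was run on these sums and ratios.

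**Figure D4:**
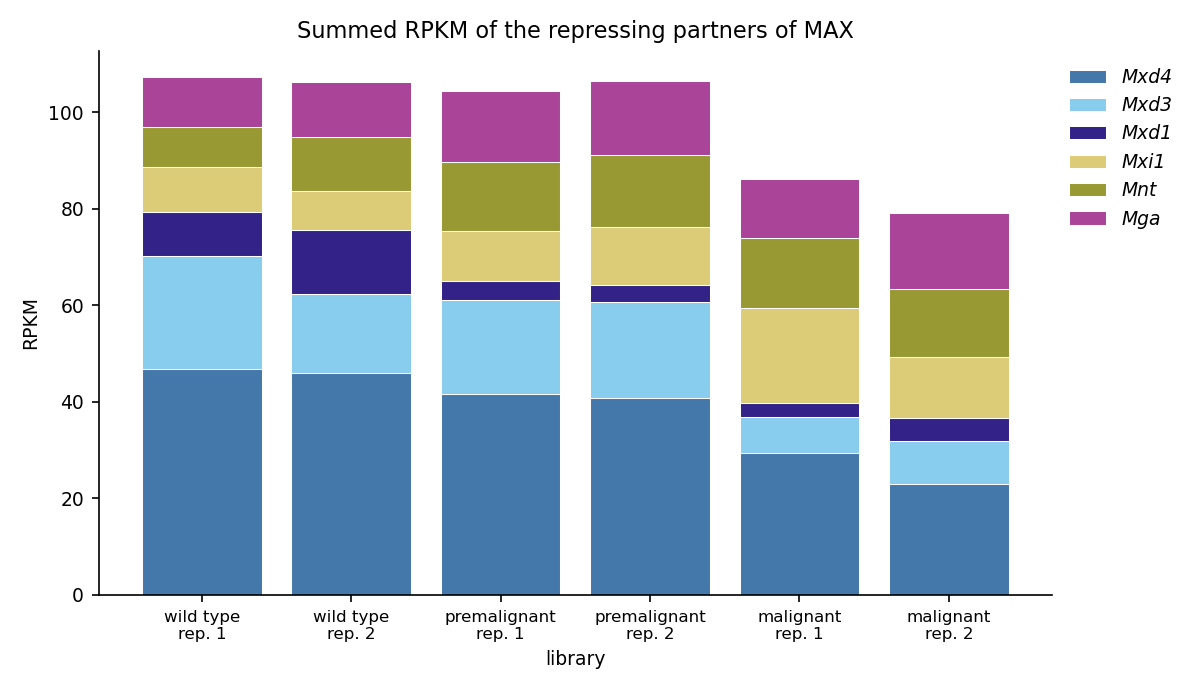
RPKM (vertical axis, from 0) of the 6 repressing partners of MAX, stacked, in each of the 6 libraries (horizontal axis). The total was 104 to 107 in wild-type and premalignant libraries and 86.1 and 79.1 in malignant libraries, where the Mxd4 and Mxd3 segments are smaller and the Mxi1 segment is larger.

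The promoters of the members were read for the E-box that the network itself binds. RefSeq promoter windows, 250 bases before to 50 after the start of transcription (build GRCm38.p6), covered 9 of the 10 members with 11 windows, all members except Myc. CACGTG, which reads the same on both strands, was found in the windows of 4 members, Max, Mxd4, Mnt and Mlx, and in 7.15% of all 32851 windows. All 4 are shown, and of them 2 were called higher (Max, Mnt), 1 lower (Mxd4) and 1 not called (Mlx) in malignant against wild-type cells. Capitals mark CACGTG, whose first base lies 3 bases before the start in Max, 219 in Mxd4, 123 in Mnt and 40 in Mlx. The sequences run 5′ to 3′ on the strand of the gene.
Max, chr12:76962246-76962345, minus strand: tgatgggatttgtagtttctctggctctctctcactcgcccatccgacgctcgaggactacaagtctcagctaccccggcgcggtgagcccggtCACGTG
Mxd4, chr5:34187877-34187960, minus strand: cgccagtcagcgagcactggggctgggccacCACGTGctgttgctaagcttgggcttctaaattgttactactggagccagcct
Mnt, chr11:74830754-74830853, plus strand: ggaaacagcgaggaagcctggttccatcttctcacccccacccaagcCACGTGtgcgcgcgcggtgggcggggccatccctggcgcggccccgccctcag
Mlx, chr11:101087190-101087289, plus strand: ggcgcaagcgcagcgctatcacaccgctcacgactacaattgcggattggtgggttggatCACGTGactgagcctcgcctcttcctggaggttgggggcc
The related CACGCG, searched on both strands, was found in the Mga window and in 9.27% of all windows. In all, 7 motifs were searched on both strands, after the expression data had been seen, the other 5 being CAGCTG, TTTCCCGC, TTTGGCGC, TTTCGCGC and GGGCGG, found in 16.3, 1.07, 0.514, 0.323 and 35.7% of all windows. Among the members CAGCTG was in the Mga window. TTTGGCGC and TTTCGCGC were in the Mycn window, where the TTTCGCGC match, starting 179 bases before the start, overlaps the TTTGGCGC match at 183 but not the one at 168. GGGCGG was in windows of Mycn, Mxd1, Mxd3, Mxd4, Mxi1, Mnt and Mga, and TTTCCCGC was in none. A match is only a description of the sequence.

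The genes around the network were counted in 9 lists of 110 genes, all of which passed the filter. Against wild type 44 were called higher and 15 lower in premalignant cells, and 40 higher and 20 lower in malignant cells. Between premalignant and malignant cells 3 were called higher and 2 lower by edgeR, with 25 at an unadjusted p under 0.05, and 4 higher and 6 lower by DESeq2. Over all genes, 19% were called higher and 20.3% lower in premalignant cells against wild type. In malignant cells against wild type these shares were 24.9 and 24.3%, and between the Eμ-Myc stages 3.73 and 2.45%. They apply to each list below.

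**Figure D5:**
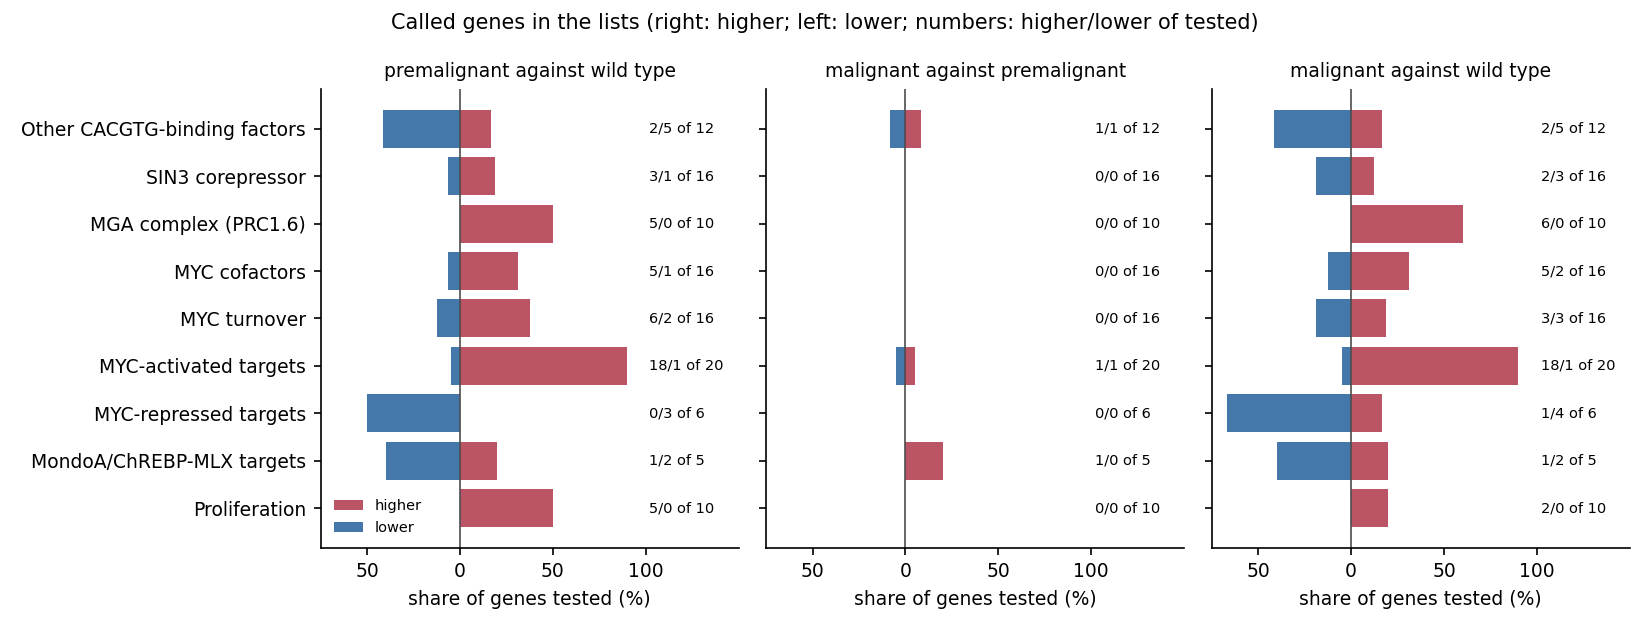
Share of genes tested (horizontal axis, percent) called higher (right) or lower (left) in each of 9 gene lists (vertical axis) in the 3 comparisons, with the counts printed beside the bars. The activated targets of MYC lie furthest to the right in both comparisons with wild type, at 18 of 20 genes, and few genes of any list were called between premalignant and malignant cells.

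Targets that MYC is known to activate rose together with it. Of 20, 18 were called higher in both comparisons with wild type, beside 19 and 24.9% of all genes. The median log2 fold change was 1.92 in premalignant and 2.32 in malignant cells. Srm, the spermidine synthase, stood at 19.3 and 24.7 CPM in wild type, 228 and 218 CPM in premalignant and 253 and 295 CPM in malignant cells, a log2 fold change of 3.64 ± 0.18 in malignant against wild-type cells (adjusted p = 0.000526). The mitochondrial chaperone Hspd1 (2.73 ± 0.20) and the lactate dehydrogenase Ldha (2.71 ± 0.17) followed. The 2 genes outside this pattern were Ccnd2, called lower in premalignant cells and higher in malignant than in premalignant cells, and Tert, called lower in malignant cells against both other stages. They are named here after their values were seen.

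Of 6 genes that MYC is known to repress, 3 were called lower in premalignant cells, and 4 lower and 1 higher in malignant cells against wild type. Lower calls made up 20.3 and 24.3% of all genes in these comparisons. Gadd45a, a stress-induced growth arrest gene, had a log2 fold change of -2.42 ± 0.34 in malignant cells (adjusted p = 0.00313) and Ndrg1 one of -2.13 ± 0.26 (adjusted p = 0.00197). Ndrg2 was called higher at 1.73 ± 0.59 (adjusted p = 0.0542), from 0.315 and 0.34 CPM in wild type to 1.49 and 0.681 CPM in malignant cells. None of the 6 was called between premalignant and malignant cells by edgeR or DESeq2, with 3 at an unadjusted p under 0.05.

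Other E-box-binding factors and the partners of MLX were counted in a list of 12. Of these, 2 were called higher and 5 lower in each comparison with wild type. Calls in either direction made up 39.3 and 49.2% of all genes. Mycl, the third MYC paralogue, stood at 10.8 and 9.17 CPM in wild type, 2.13 and 0.904 CPM in premalignant and 0.105 and 0.896 CPM in malignant cells. It was called lower at both Eμ-Myc stages, with a log2 fold change of -4.39 ± 0.97 in malignant cells (adjusted p = 0.0133). Both other MYC paralogues were thus lower where Myc was higher. The part of non-B cells in the Mycl difference was not tested. Bhlhe41, a repressor that binds E-boxes, rose at each step, from 5.36 and 9.37 CPM in wild type to 25.4 and 30.1 CPM in premalignant and 145 and 164 CPM in malignant cells. Its log2 fold change between premalignant and malignant cells was 2.48 ± 0.28 (adjusted p = 0.0199). In that comparison 1 of the 12 was called higher and 1 lower, beside 3.73 and 2.45% of all genes. The lower one was Arntl (-1.33 ± 0.22, adjusted p = 0.0389), named here after its values were seen. Bhlhe40, a relative of Bhlhe41, was called lower in malignant against wild-type cells (-2.82 ± 1.09, adjusted p = 0.0803), although malignant libraries differed widely at 0.126 and 2.15 CPM.

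Mlxip, the partner of MLX, stood at 389 and 504 CPM in wild type, 294 and 239 CPM in premalignant and 235 and 148 CPM in malignant cells and was called lower at both stages (log2 fold change in malignant cells -1.22 ± 0.26, adjusted p = 0.0126). Mlxipl was low, at 0.324 to 0.841 CPM, though above the level of 3 counts in every library. It was not called (log2 fold change in malignant against wild-type cells -1.06 ± 0.45, adjusted p = 0.105). Of 5 targets of the MLX heterodimers, Txnip, an inhibitor of glucose uptake, stood at 283 and 367 CPM in wild type, 107 and 118 CPM in premalignant and 221 and 183 CPM in malignant cells. It was called lower in both comparisons with wild type and higher in malignant than in premalignant cells (log2 fold change 0.85 ± 0.18, adjusted p = 0.0721). Its paralogue Arrdc4 was called lower in malignant against wild-type cells at -3.34 ± 0.88 (adjusted p = 0.0245). Arrdc4 was low throughout, at 3.12 and 1.9 CPM in wild type and 0.0628 and 0.466 CPM in malignant cells. In malignant replicate 1 this is the level of 3 counts, so the size of the change is uncertain. The hexokinase gene Hk2 was called higher at 2.89 ± 0.22 (adjusted p = 0.000691).

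Of 16 genes of the SIN3 complex, the corepressor that MXD proteins and MNT recruit, 3 were called higher and 1 lower in premalignant cells, and 2 higher and 3 lower in malignant cells against wild type. Among all genes 19% were called higher and 20.3% lower in premalignant cells, and 24.9 and 24.3% in malignant cells. The scaffold Sin3a had a log2 fold change of 0.05 ± 0.14 in malignant cells (adjusted p = 0.783), and its paralogue Sin3b was called lower at -0.57 ± 0.20 (adjusted p = 0.0656). The histone chaperone Rbbp7 (1.17 ± 0.19, adjusted p = 0.00522) and Sap18 (1.05 ± 0.19, adjusted p = 0.00647) were called higher, and Arid4b lower (-0.99 ± 0.19, adjusted p = 0.00787). Of the 16, edgeR called none between the Eμ-Myc stages, DESeq2 called 1 lower, and 2 had an unadjusted p under 0.05.

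Genes of the MGA-containing Polycomb complex were called higher in 5 of 10 cases in premalignant and in 6 of 10 in malignant cells against wild type. Over all genes these shares were 19 and 24.9%. None of the 10 was called lower by edgeR or DESeq2. Under upper-quartile scaling the malignant count was 4 higher and 1 lower. Pcgf6, the subunit that defines this complex, stood at 13.4 and 13.3 CPM in wild type, 46.1 and 45.8 CPM in premalignant and 52 and 49.5 CPM in malignant cells (log2 fold change in malignant against wild-type cells 1.93 ± 0.14, adjusted p = 0.000633). Tfdp1, the dimerisation partner of E2F proteins, was called higher at 1.86 ± 0.18 (adjusted p = 0.00113), and E2f6 at 1.29 ± 0.44 (adjusted p = 0.0548) with malignant libraries at 25.9 and 66.9 CPM. Between premalignant and malignant cells neither tool called any and none had an unadjusted p under 0.05.

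Of 16 cofactors of MYC, 5 were called higher in each comparison with wild type, and 1 and 2 lower. In either direction 39.3 and 49.2% of all genes were called. Upper-quartile scaling gave 4 of the 16 higher and 2 lower in premalignant cells. The acetyltransferase Kat2a (2.04 ± 0.13, adjusted p = 0.00054) and the ATPases Ruvbl1 (1.88 ± 0.21, adjusted p = 0.00153) and Ruvbl2 (1.68 ± 0.12, adjusted p = 0.000633) were higher in malignant cells against wild type. Zbtb17, through which MYC represses genes, was called lower in malignant cells at -0.55 ± 0.17 (adjusted p = 0.039). Neither tool called any between the Eμ-Myc stages, with 2 at an unadjusted p under 0.05.

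Of 16 genes that act on the stability of MYC, 6 were called higher and 2 lower in premalignant cells, and 3 in each direction in malignant cells against wild type. The shares over all genes were 19 and 20.3% in premalignant, and 24.9 and 24.3% in malignant cells. Upper-quartile scaling gave 1 of the 16 higher and 3 lower in malignant cells. The deubiquitinase Usp36 rose in malignant cells against wild type (2.13 ± 0.17, adjusted p = 0.000715). The kinases Pim1 (-1.58 ± 0.26, adjusted p = 0.00526) and Pim2 (-2.38 ± 0.14, adjusted p = 0.00054) were lower. Between premalignant and malignant cells edgeR called none and DESeq2 called 3 lower, with 6 at an unadjusted p under 0.05. Of 10 proliferation genes, Plk1 shared with this list, 5 were called higher in premalignant and 2 in malignant cells against wild type. The shares of all genes called higher were 19 and 24.9%. The 2 in malignant cells were Aurkb (0.79 ± 0.19, adjusted p = 0.0169) and Cdk1 (0.74 ± 0.29, adjusted p = 0.0804). The malignant count became 1 higher and 1 lower under upper-quartile scaling. None was called lower by edgeR or DESeq2, and between premalignant and malignant cells neither tool called any, with 2 at an unadjusted p under 0.05.

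For the 8 members called in malignant against wild-type cells, the genes whose levels followed each most closely were found from Pearson's r of log2(CPM + 0.5) over the 6 libraries among 8870 genes of at least 10 CPM on average. With 3 stages of 2 libraries such values are high for many genes and are given as a description. Myc was followed most closely by Rrp9, which processes ribosomal RNA, Mrpl11 and the RNA polymerase I subunit Polr1b (r of 0.9998, 0.9995 and 0.9994), and 232 genes had an r over 0.99. Mycn was followed by Eif2ak3, Map3k3 and Cacna1e, with 40 such genes, and Max by Pomt2, Baz1a and Ube2g2, with 31. For Mxd1 these were Abca7, Pip5k1c and Akna, with 15 such genes. For Mxd3 they were Taldo1, Nfatc2ip and the recombination gene Rad51c, and for Mxd4 Vps18, Coq7 and Pogk, with 3 genes over 0.99 each. Mxi1 (Atxn1l, Tpt1 and Ddx59) and Mnt (Prkrip1, Rbck1 and Tyw1) each had 1.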

How the data were processed

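Bone marrow pre-B cells were sequenced as 50-bp single-end reads of polyadenylated RNA. The submitters' notes name CASAVA 1.8.2, Bowtie, HTSeq, DESeq and build mm9, and the study's methods name TopHat. The authors deposited raw HTSeq counts per gene, 1 file per library. HTSeq's options and the annotation release are not given in the sources used here. Tables of the authors' own comparisons (means over 2 libraries, fold changes, p-values) were not used. Identifiers were named with GENCODE vM1 (37205 matched, 786 did not). Counts of all 6 libraries were fitted by stage in edgeR 4.0.16 (R 4.3.3) with TMM, filterByExpr and the quasi-likelihood test. On simulated counts the median fold changes of both tools were close to those put in, but many changed genes were not called, and unchanged genes made up more of the calls than the nominal FDR allows, in DESeq2 more than in edgeR. The simulation changed only a small share of the genes, and only in malignant cells. In the data 6.18 to 49.2% of genes were called, depending on the comparison. The share of false calls varies with the share of changed genes, so its size in the data was not measured. Calls near the threshold may be less certain than their adjusted p-values state. DESeq2 1.42.0, other scalings, filters, thresholds and fits without 1 library were alternatives. Replicate libraries differed beyond sampling noise, so none was treated as a duplicate. The replicate number was not used as a block.

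The members and gene lists were chosen with earlier results of these data known. Genes of the lists are named where they were called and had 1 of the 3 largest changes of their list in malignant against wild-type cells, or belong to 8 genes listed by name; exceptions are stated. Each stage has 2 libraries, and depth follows the replicate number.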

Additional observations from a re-analysis of the deposited data

How the results depend on the processing

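Of the 10 members, 5 were called in premalignant against wild type cells, and 3 with at least 10 counts in every library and 3 at a minimum log2 fold change of 1; without 1 library the count was 1 to 6. In malignant against premalignant cells 3 were called, 1 when only both stages were fitted, 1 at an FDR of 0.05 and 0 to 5 without 1 library, the 5 being without malignant replicate 2, which added Myc and Mxi1. In malignant against wild type cells 8 were called, 4 at a fold change of at least 1 and 6 to 10 without 1 library. With the replicate number as a block 4, 2 and 8 were called: Max in premalignant against wild-type and Mxd4 in malignant against premalignant cells were lost, and no other call on a member changed. Same-numbered libraries correlated in their deviations at 0.412, 0.128 and 0.0569, and nothing says what a number marks. Differences that changed sign were all uncalled: Mxd3 in premalignant against wild-type cells was 0.03 with both stages alone and -0.27 to 0.27 without 1 library. In malignant against premalignant cells Mxd1 was -0.04 under upper-quartile scaling, -0.01 with the block and -0.38 to 0.34 without 1 library, Max -0.08 to 0.44, Mnt -0.06 to 0.00 and Mga -0.34 to 0.07. Over single members' differences 380 of the other values kept direction and call, 46 lost and 11 gained the call.

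The count over the 110 listed genes was added after the data had been seen. In premalignant against wild type cells it was 59, 38 at a fold change of at least 1 and 37 to 67 without 1 library. In malignant against premalignant cells it was 5, 10 by DESeq2, 17 with no filter on low counts, 2 with both stages alone, 3 at an FDR of 0.05 and 0 to 29 without 1 library. By list, in premalignant against wild type cells, a fold change of at least 1 left 3 E-box factors, 1 SIN3 gene, 3 MGA complex genes, 3 cofactors, 3 turnover genes and 0 proliferation genes. An FDR of 0.05 left 4 E-box factors, 3 MGA complex, 5 turnover and 2 proliferation genes, and DESeq2, no filter and both stages alone gave 8 proliferation genes each. Without 1 library these lists had 2 to 7, 1 to 5, 3 to 6, 3 to 6, 4 to 10 and 1 to 9. In malignant against premalignant cells upper-quartile scaling and at least 10 counts each gave 1 SIN3 and 1 turnover gene. DESeq2 gave 1 and 3. No filter gave 1 SIN3, 3 turnover, 4 activated, 2 repressed and 4 proliferation genes. With both stages alone activated and MLX targets had 0 each, at an FDR of 0.05 they had 1 and 0, and MLX targets had 0 at a fold change of at least 1. Without 1 library E-box factors had 0 to 4, SIN3 0 to 4, MGA complex and cofactors 0 to 1, turnover and activated targets 0 to 6, repressed targets 0 to 4 and MLX targets and proliferation 0 to 3. In malignant against wild type cells a fold change of at least 1 left 2 SIN3 genes, 3 cofactors and 0 proliferation genes, an FDR of 0.05 left 3 MGA complex genes and 1 proliferation gene, and the block and both stages alone left 1 proliferation gene each. Without 1 library SIN3 had 3 to 5, MGA complex 3 to 7, cofactors 4 to 9, repressed targets 3 to 5, MLX targets 2 to 5 and proliferation 1 to 5. The cause of these differences was not tested beyond the fewer libraries or stricter thresholds themselves.

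With the longest transcript as length, the RPKM that moved by more than their SD became Myc 16.1, Mxi1 9.41, Mga 12.1 in wild-type, Myc 496, Mycn 0.156, Mxd3 23.3, Mga 16.5, Mlx 14.6 in premalignant and Myc 708, Mxd3 9.73 in malignant cells. As a share of counts in place of RPKM, the percentages that moved became Myc 5.41, Max 12.3, Mxd3 6, Mxd4 26, Mxi1 7.01, Mga 24.3, Mlx 4.83 in wild-type, Myc 61.4, Max 6.4, Mxd1 0.937, Mxd3 2.15, Mxd4 8.48, Mxi1 3.33, Mnt 3.58, Mga 12.2, Mlx 1.51 in premalignant and Myc 71.1, Max 6.08, Mxd1 0.788, Mxd3 0.73, Mxd4 4.36, Mxi1 3.88, Mnt 2.85, Mga 9.21, Mlx 1.02 in malignant cells, since longer genes weigh more in counts. Upper-quartile scaling gave 3 listed genes higher and 4 lower in malignant against premalignant cells. Depth limits Mycn most, with 2 and 0 reads in the malignant libraries.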
